A study of Homo sapiens with 2 samples.

Results

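Amino acid transporters of 7 solute carrier families (SLC1, SLC3, SLC6, SLC7, SLC36, SLC38 and SLC43) were examined after p97 inhibition in HCT116, a long-established line of human colorectal carcinoma cells. The members were the rows of the series table whose gene symbol is one of these family numbers, the letter A and a number, which gave 54 of 21115 genes. The rule itself uses symbols and no measured value, although it was proposed with earlier results of these data known. One culture condition was 1 µM CB-5083 for 8 h and the other was the solvent DMSO for 8 h, and both were the same unmodified line. Messenger RNA was sequenced from 1 library per condition, so the differences below come without replicates or p-values; whether a library came from 1 culture or from several is not stated in the labels. CB-5083 is a small-molecule inhibitor of p97, an ATPase encoded by VCP that extracts ubiquitin-tagged proteins for degradation.

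Cells take up, exchange and recycle amino acids through these carriers. SLC7 light chains work only when joined to an SLC3 heavy chain, SLC1 members move glutamate, aspartate or small neutral amino acids, SLC38 members import glutamine and other neutral amino acids with sodium, and SLC36 and some SLC38 members sit on lysosomes. When amino acids are short or the endoplasmic reticulum is stressed, cells translate the transcription factor ATF4, whose known targets include several of these transporters. A common element for ATF4 with a C/EBP partner is called the amino acid response element.

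Estimated counts summed to 29273713 for DMSO and to 31997688 for CB-5083. Levels are given as CPM, each count relative to its library's TMM-scaled total. Each fold is followed by its 95% Clopper-Pearson interval, which covers counting error only. It is exact for whole counts. For 23 of the 54 members, among them all those called higher below, an estimated count was not whole, and the interval is approximate. A value of 0 allows up to 3 counts, or 0.0910 CPM for DMSO and 0.106 for CB-5083. Of 11 colon epithelial markers 7 reached 1 CPM in a library, with EPCAM at 433 and 501 CPM, whereas CDX1, CEACAM5, LGR5 and VIL1 had at most 1 count in each library. Among 10 markers of leukocytes, fibroblasts and endothelium only COL1A1 reached 1 CPM, at 2.52 with DMSO and 3.48 with CB-5083.

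Under CB-5083, 6 transporters passed a 2-fold threshold upward and 4 passed it downward. SLC7A11, SLC38A2, SLC7A1, SLC3A2, SLC7A5 and SLC38A1 were the higher genes. SLC1A3, SLC1A1, SLC7A2 and SLC6A17 were the lower genes. These calls used a log2 ratio of (CB-5083 + 1) over (DMSO + 1) CPM of at least 1 in size, and at least 5 CPM in 1 library. Of the 54 members, 44 were above 0 in some library, 41 in both, 28 reached 1 CPM and 21 reached 5 CPM. Of those 21, 4 (SLC1A1, SLC1A4, SLC6A17 and SLC38A10) reached 5 CPM in only 1 library.

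The same rule called 7.22% of all 9543 genes at this level higher and 4.91% lower. The members' counts correspond to 28.6% higher and 19.0% lower. Only 6 of the 21 members (28.6%) lay within 1.5-fold of equality, against 70.1% of all genes. Higher and lower members offset each other in the middle of the distribution. Their median log2 ratio was 0.16 beside 0.095 over all genes at this level, and -0.06 beside -0.01 over members and genes above 0 in both libraries. Of 249 other genes with solute carrier symbols 109 reached 5 CPM, of which 6 were higher (5.50%) and 9 lower (8.26%), with a median of -0.13. These shares describe 1 pair of libraries and were not tested against each other.

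**Figure D1:**
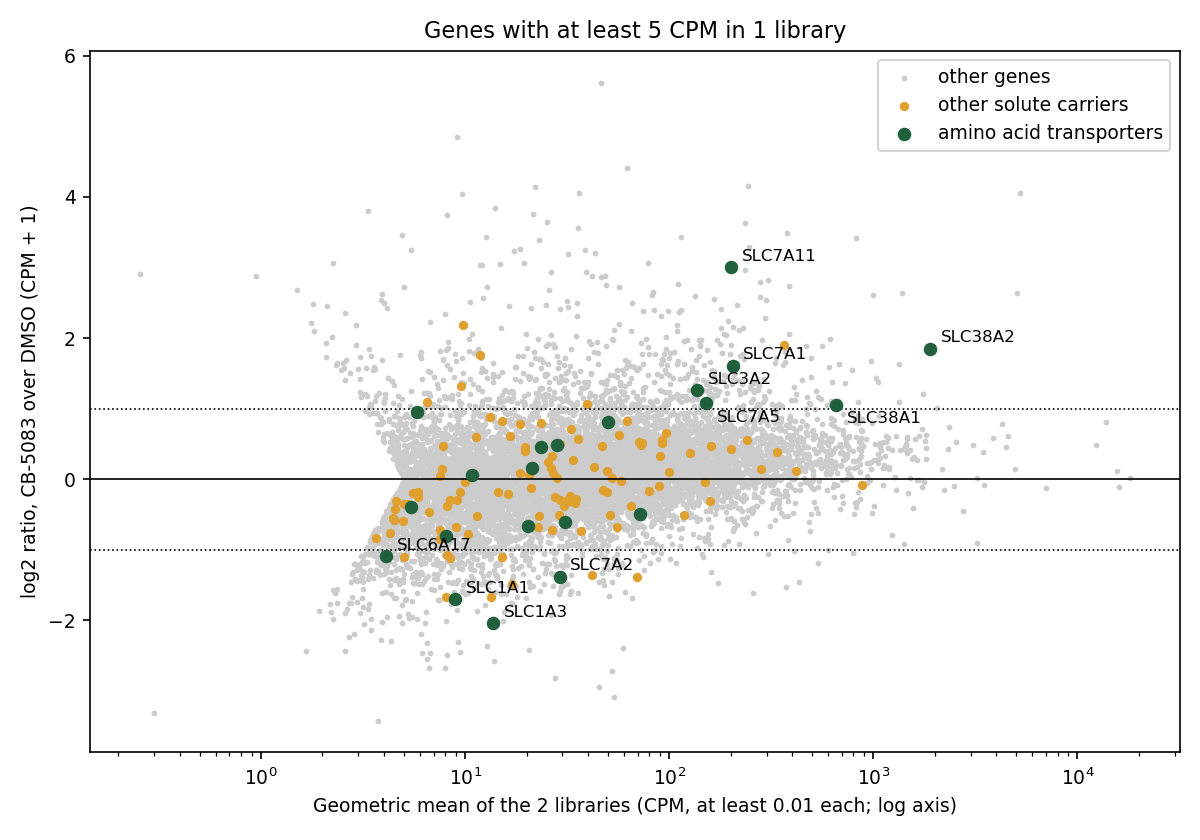
The log2 ratio of CB-5083 over DMSO (vertical axis, CPM + 1) is plotted against the geometric mean level (horizontal log axis, CPM) for the 9543 genes with at least 5 CPM in 1 library, with amino acid transporters in green and other solute carriers in orange. Dotted lines mark 2-fold; of 21 transporters 6 lie above the upper line and 4 below the lower one, with SLC7A11 the highest transporter and SLC1A3, at -2.04, the lowest.

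Calls near the threshold depended on the scaling. On the log2 scale the median over the 9543 genes with at least 5 CPM in 1 library shifted by -0.33 with library totals. With upper quartile scaling it shifted by -0.20. With library totals the higher members were SLC7A11, SLC38A2 and SLC7A1, and SLC36A1 joined the 4 lower ones, while SLC3A2, SLC7A5 and SLC38A1 stood at 0.93, 0.74 and 0.72. Over all genes library totals turned 689 higher and 469 lower into 371 and 994. Among the 28 members with at least 1 CPM, the sign of the ratio turned only for SLC38A5 and SLC43A3 over the 6 other scalings, pseudocounts and sources of the ratio.

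**Figure D2:**
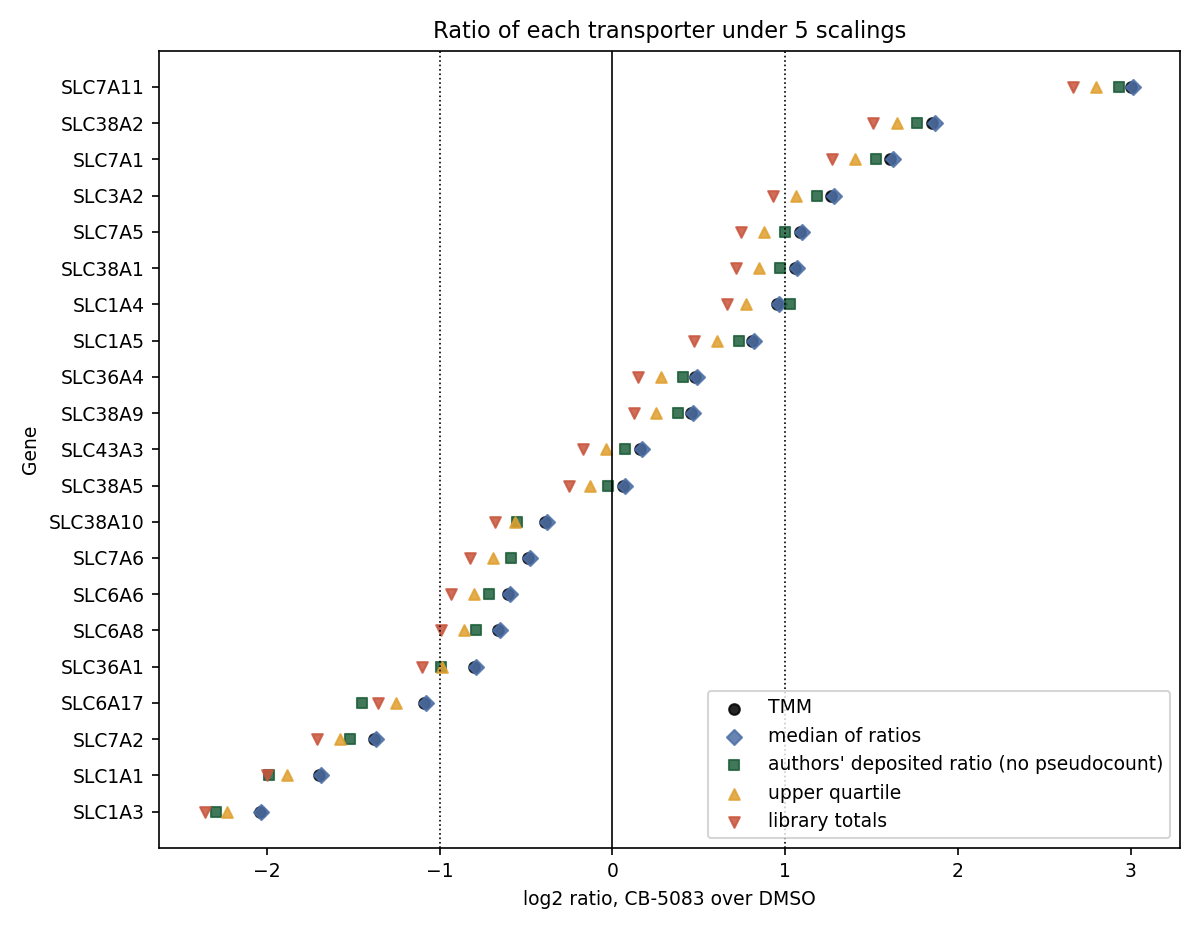
The log2 ratio (horizontal axis, CB-5083 over DMSO) of the 21 transporters with at least 5 CPM in 1 library is shown, with dotted lines at 2-fold. The 5 settings, 1 symbol each, are scalings with the pseudocount and the authors' deposited ratio, which has none. SLC7A11, SLC38A2 and SLC7A1 stay right of the upper line and SLC1A1, SLC1A3, SLC7A2 and SLC6A17 left of the lower line under all 5. SLC3A2, SLC7A5, SLC38A1 and SLC1A4 cross the upper line, SLC1A4 only in the authors' deposited ratio. SLC36A1 crosses the lower line, only with library totals.

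Promoter sequence was read for the members because several were called in the same direction and the amino acid response element has a short core. The core searched was TGATGNAA on both strands (TTNCATCA when read on the other strand), in windows of 300 bases, 250 before and 50 after each RefSeq start (GRCh38.p14). Of 54 members 43 had an entry. The core was found in 6 of these 43 genes, beside 4.46% of all 27305 symbols, and in 6 of their 65 windows (9.23%), beside 3.62% of all 35116 windows. A longer core, with T or C as the next base, was in 1 of the 65 windows, that of SLC7A1, and in 1.77% of all windows, so the higher share among members did not hold for it. The 6 matches are shown with their surroundings, 30 bases each on the gene's strand, with the core in capitals.
SLC3A2: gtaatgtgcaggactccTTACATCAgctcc
SLC38A1: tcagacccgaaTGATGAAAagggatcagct
SLC7A1: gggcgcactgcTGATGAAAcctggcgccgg
SLC1A4: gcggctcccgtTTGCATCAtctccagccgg
SLC1A5: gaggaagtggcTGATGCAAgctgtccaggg
SLC1A3: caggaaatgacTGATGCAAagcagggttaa

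Positions are relative to the RefSeq start of the matching window, counting the first transcribed base as 1. SLC3A2, SLC1A5 and SLC1A3 had 3 windows each, SLC38A1 and SLC1A4 had 2 and SLC7A1 had 1, and 1 window of each gene matched. Which start these cells use was not measured here. The cores of SLC3A2 and SLC7A1 begin at 38 and 8. Those of SLC38A1 and SLC1A4 span that start (from -4 to 4 and from -7 to 1). Those of SLC1A5 and SLC1A3 begin at -97 and -220. In GRCh38.p14 the printed stretches are chr11:62881719-62881748 (plus strand), chr12:46266502-46266531 (minus), chr13:29595663-29595692 (minus), chr2:64989381-64989410 (plus), chr19:46784893-46784922 (minus) and chr5:36596357-36596386 (plus), in the order listed. Of the 6 higher transporters all but SLC7A11 had an entry, and 3 of these 5 had the core. Of the 4 lower ones 3 had an entry and 1, SLC1A3, the core. SLC1A4 and SLC1A5, the other matches, had ratios of 0.95 and 0.81, short of 2-fold. SLC7A5 and SLC38A2 had no such letters in these windows, which says nothing of other windows. A match is a string of letters and not a measured binding site.

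The cystine importer SLC7A11, the heavy chain SLC3A2 and the light chain SLC7A5 were higher, and the light chains SLC7A6 and SLC7A8 had ratios below 0. SLC7A11, the xCT light chain that takes up cystine in exchange for glutamate (chr4:139085248-139163503, hg19), was at 70.5 CPM under DMSO and at 572 under CB-5083. That is 8.12-fold (7.77 to 8.48) and the 35th highest log2 ratio of 9543 genes. SLC3A2, the CD98 heavy chain that carries most SLC7 light chains to the plasma membrane (chr11:62623484-62656355), was at 87.9 against 213 CPM, 2.42-fold higher (2.32 to 2.53). SLC7A5, the LAT1 light chain for leucine and other large neutral amino acids (chr16:87863629-87903100), was at 103.9 against 221 CPM, 2.13-fold higher (2.04 to 2.22). Its value is uncertain to the extent that reads are shared with pseudogene copies, 1 of which, SLC7A5P2, is a row of its own. SLC7A6, the y+LAT2 light chain, which exchanges cationic for neutral amino acids, was lower, at 85.4 against 60.6 CPM (1.41-fold, with an interval from 1.33), within the threshold. It overlaps SLC7A6OS (10.3 against 9.35 CPM), and the sources used here do not say whether counting used strand. SLC7A8, the LAT2 light chain, was far less abundant, at 2.22 against 1.16 CPM (1.91-fold lower, 1.25 to 2.97).

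Because these light chains share the heavy chain SLC3A2, their levels were compared per kilobase of transcript. The summed level of the 6 listed SLC3A2 partners was 44.6 CPM per kb with DMSO and 118 with CB-5083, while SLC3A2 itself was at 42.3 and 102.5. The ratio of light chains to heavy chain was thus 1.05 and 1.15. SLC7A11 made up 16.4% of the light chain sum with DMSO and 50.2% with CB-5083. SLC7A5 went from 51.4% to 41.3% and SLC7A6 from 30.5% to 8.17%, so the most abundant light chain per kilobase was SLC7A5 under DMSO and SLC7A11 under CB-5083. Lengths are medians over annotated transcripts, but SLC7A11 and SLC7A5 each had only 1 matched transcript, of 9645 and 4537 bases. The isoforms in these cells were not measured here.

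**Figure D3:**
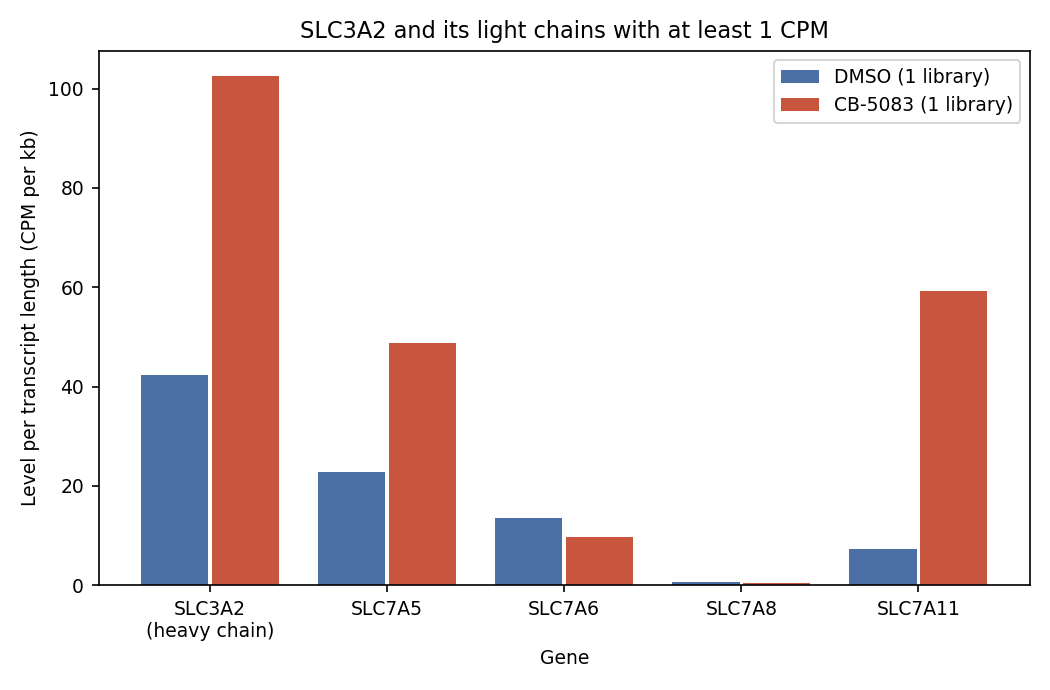
Bars give the level per transcript length (CPM per kb) of the heavy chain SLC3A2 and of its light chains with at least 1 CPM, blue for DMSO and red for CB-5083, 1 library each and no error bars. SLC3A2 stands at 42.3 and 102.5, and SLC7A11 passes from the lower (7.31) to the higher (59.3) side of SLC7A5 (22.9 and 48.8).

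The cationic amino acid transporters of SLC7, which carry arginine, lysine and ornithine, went in opposite directions. SLC7A1, known as CAT1 (chr13:30083551-30169825), was at 117 CPM under DMSO and at 358 under CB-5083, 3.07-fold higher (2.96 to 3.19). SLC7A2, known as CAT2, was at 47.7 against 17.7 CPM, 2.69-fold lower (2.43 to 2.98). Per kilobase SLC7A1 made up 71.5% of the cationic transporter sum with DMSO and 95.3% with CB-5083, and SLC7A2 28.4% and 4.59%. SLC7A14, a lysosomal relative, was below 1 CPM in both libraries.

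System A transporters, which import alanine, serine, glutamine and other small neutral amino acids with sodium, were the most abundant members and both measured ones were higher. SLC38A2, known as SNAT2 (chr12:46751971-46766645), was at 999 CPM under DMSO and at 3609 under CB-5083, 3.61-fold higher (3.57 to 3.66). SLC38A1, known as SNAT1 (chr12:46576841-46663208), was at 455 against 948 CPM, 2.08-fold higher (2.04 to 2.13). These genes are neighbours, 88.8 kb apart. SLC38A4, the third system A gene, 392 kb beyond SLC38A2, had 1 and 4 counts. SLC38A2 alone took 0.112% (0.111 to 0.114) of all estimated counts with DMSO and 0.321% (0.319 to 0.323) with CB-5083, out of 0.251% and 0.555% for all 54 members together.

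The remaining SLC38 genes with at least 5 CPM in 1 library stayed within 2-fold. SLC38A5, a system N carrier for glutamine, asparagine and histidine, was at 10.6 against 11.1 CPM (1.05-fold, 0.896 to 1.22). SLC38A9, the lysosomal arginine sensor of the mTORC1 pathway, was at 19.96 against 27.7 CPM (1.39-fold higher, 1.25 to 1.54). SLC38A10 was lower, at 6.40 against 4.64 CPM (1.38-fold, 1.10 to 1.73). The lysosomal glutamine carrier SLC38A7 was at 2.61 against 1.41 CPM (1.85-fold lower, 1.26 to 2.77). SLC38A6 was at 3.49 against 2.29 CPM (1.53-fold lower, 1.12 to 2.10). Both were under the 5 CPM filter.

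Of the 5 glutamate and aspartate transporters of SLC1, 2 reached 5 CPM and both were called lower, while the other 3 had at most 5 counts in either library. Both neutral exchangers of the family had ratios above 0 that were short of the threshold. SLC1A3, known as EAAT1 (chr5:36606457-36688436), was at 29.5 CPM under DMSO and at 6.40 under CB-5083, 4.61-fold lower (3.93 to 5.43). Its log2 ratio was the 29th lowest of 9543. SLC1A1, known as EAAT3 (chr9:4490427-4587469), was at 17.3 against 4.64 CPM, 3.73-fold lower (3.08 to 4.54). Per kilobase the 5 glutamate and aspartate transporters summed to 12.3 with DMSO and 2.96 with CB-5083, with SLC1A3 at 61.4% and 55.3% of the sum and SLC1A1 at 37.9% and 42.1%. SLC1A5, known as ASCT2, which exchanges glutamine for other neutral amino acids, was at 37.8 against 66.95 CPM (1.77-fold higher, 1.65 to 1.90). SLC1A4, known as ASCT1, an exchanger of serine, alanine and cysteine, was at 3.95 against 8.56 CPM. Its fold of 2.17 (1.75 to 2.71) passes 2-fold without the pseudocount, as does the log2 ratio of 1.03 in the authors' deposited table, but not with the pseudocount (0.95).

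SLC6 members, sodium- and chloride-coupled carriers, were few in these cells and the 3 above 5 CPM had ratios below 0. SLC6A17, a vesicular carrier of neutral amino acids best known from neurons (chr1:110693132-110744823), was at 6.59 against 2.57 CPM, 2.56-fold lower (1.96 to 3.39). Its call ended with a pseudocount of 5 CPM. SLC6A6, the taurine transporter, was at 38.3 against 24.8 CPM (1.54-fold lower, 1.40 to 1.69). SLC6A8, the creatine transporter, was at 25.8 against 15.9 CPM (1.62-fold lower, 1.44 to 1.82). That value is uncertain because SLC6A10P, a pseudogene with a row of its own, is a near copy. Below the filter, SLC6A9, the glycine transporter GLYT1, was at 0.577 CPM under DMSO and at 3.13 under CB-5083, from 19 and 89 counts. Its fold without a pseudocount was 5.43 (3.28 to 9.44), an interval that includes the 3.61 of SLC38A2, and its ratio with the pseudocount was 1.39. SLC6A20, a proline carrier, was at 1.85 against 1.68 CPM.

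Of the proton-coupled SLC36 carriers, SLC36A1, which exports small amino acids from lysosomes, was at 10.98 against 5.88 CPM (1.87-fold lower, 1.55 to 2.26). SLC36A4, a high-affinity carrier of proline and tryptophan, was at 23.7 against 33.4 CPM (1.41-fold higher, 1.28 to 1.55). Neither passed the threshold. Among the SLC43 facilitators SLC43A3, a purine nucleobase carrier, was at 20.1 against 22.6 CPM (1.12-fold, 1.01 to 1.25). SLC43A1, known as LAT3, a carrier of branched-chain amino acids 57.0 kb from it, was at 0.759 against 2.92 CPM from 25 and 83 counts (3.85-fold higher, 2.44 to 6.29), under the filter. SLC43A2, known as LAT4, was at 1.03 against 0.95 CPM.

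**Figure D4:**
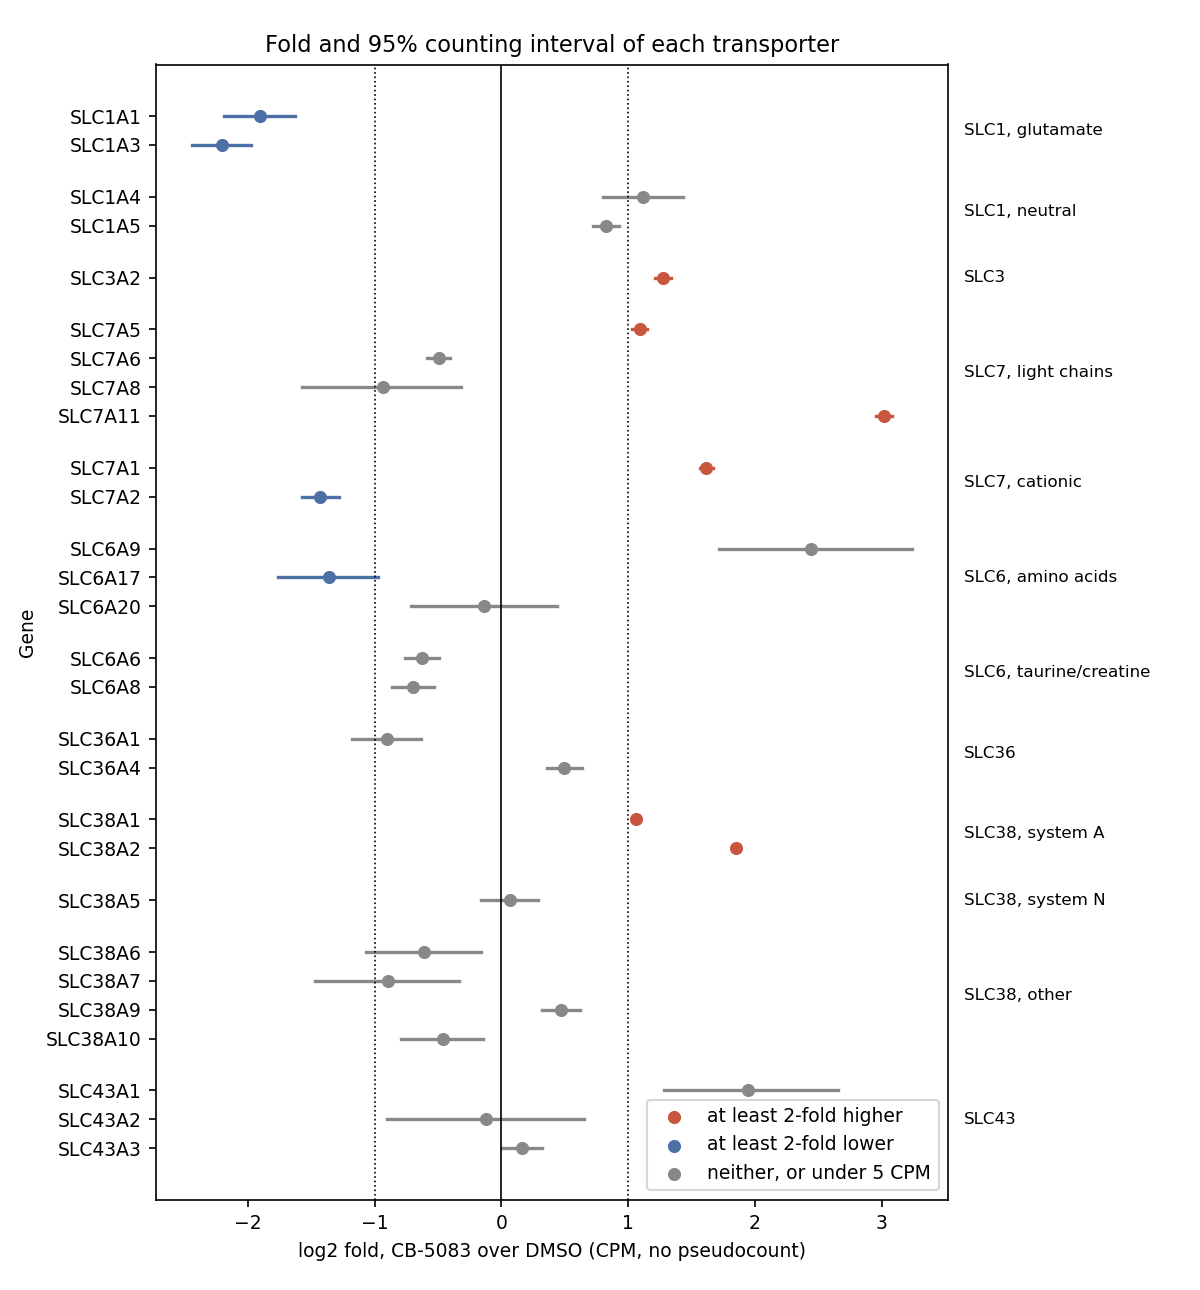
Points give the log2 fold of CB-5083 over DMSO without a pseudocount (horizontal axis) for the 28 transporters with at least 1 CPM in 1 library, ordered by family and role, and lines give the 95% counting interval. Red genes were called higher and blue genes lower; SLC6A9 and SLC43A1, grey because they lie under 5 CPM, have intervals right of the 2-fold line.

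The other 26 members stayed below 1 CPM in both libraries, and the highest of these values was 0.772 CPM. At 0 in both libraries were 10 members: SLC1A7, SLC7A10, SLC6A3, SLC6A5, SLC6A7, SLC6A11, SLC6A15, SLC6A19, SLC38A8 and SLC38A11. SLC6A4 and SLC6A14 were at 0 in 1 library, with 3 and 2 counts in the other. Above 0 in both were 13, namely SLC1A2, SLC1A6, SLC3A1, SLC7A7, SLC7A9, SLC7A14, SLC6A12, SLC6A13, SLC6A16, SLC36A2, SLC36A3, SLC38A3 and SLC38A4. SLC3A1 and SLC7A9, the heavy and light chain of the renal cystine carrier, had 25.4 and 8 counts with DMSO and 13.7 and 1.99 with CB-5083. Of the 13 only SLC6A16, an orphan carrier singled out after its values were seen, had an interval that left out equality, at 24 against 3 counts (6.90-fold lower, 2.10 to 35.8). Differences of the others were not detectable at this depth.

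Ordered by level per kilobase with DMSO, SLC38A2 (204 CPM per kb) came first, followed by SLC38A1 (56.5), SLC3A2 (42.3), SLC7A5 (22.9) and SLC1A5 (20.2). With CB-5083 the order was SLC38A2 (738), SLC38A1 (117.6), SLC3A2 (102.5), SLC7A11 (59.3), SLC7A5 (48.8) and SLC7A1 (48.7). SLC7A5 and SLC7A1 were nearly level there. All 54 members had a length, and their levels per kilobase summed to 452 with DMSO and 1216 with CB-5083 (2.69 times), of which SLC38A2 made up 45.2% and 60.7%.

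**Figure D5:**
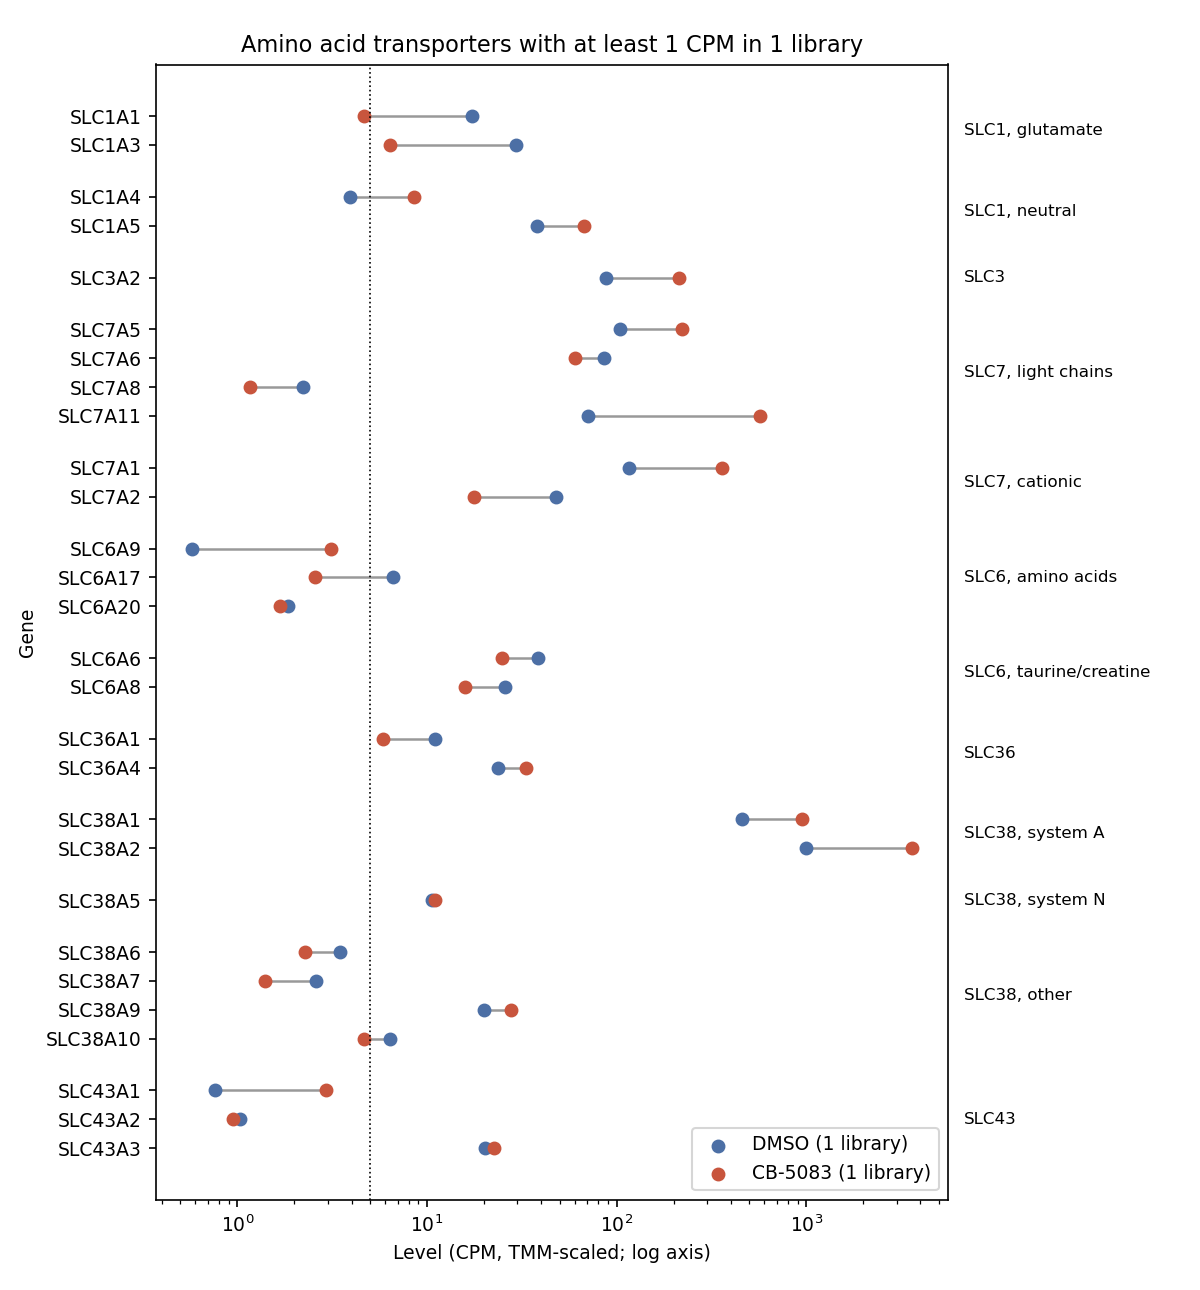
The level in each library (horizontal log axis, CPM) is shown for the 28 transporters with at least 1 CPM, blue for DMSO and red for CB-5083, joined by a line and grouped by role; the dotted line marks 5 CPM. SLC38A2 and SLC38A1 lie farthest right, and the glutamate transporters SLC1A1 and SLC1A3 move left while SLC7A11 moves right.

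The list of related genes held other carriers of amino acids and peptides, partners of transporters, and regulators of their turnover, and 26 of its genes were matched, 15 of them with at least 5 CPM. Of these 15, 2 were higher (13.3%, beside 7.22% of all genes) and 1 lower (6.67%, beside 4.91%), with a median log2 ratio of -0.01. NEDD4L, a ubiquitin ligase that removes transporters from the plasma membrane, was at 54.5 against 112 CPM (2.06-fold higher, 1.95 to 2.19). SGK3, a kinase related to SGK1, was at 41.8 against 84.95 CPM (2.03-fold higher, 1.90 to 2.17). SGK1 itself went the other way, at 4.01 against 2.25 CPM (1.78-fold lower, 1.31 to 2.44), under the 5 CPM filter. SLC16A10, the aromatic amino acid carrier TAT1, was at 7.92 against 3.17 CPM (2.50-fold lower, 1.96 to 3.22). NEDD4, another ubiquitin ligase of that family, was at 35.8 against 71.9 CPM (2.01-fold higher, 1.87 to 2.16), with a ratio of 0.99 that fell short once the pseudocount was added. SLC25A22, a mitochondrial glutamate carrier, was at 4.10 against 1.65 CPM (2.48-fold lower, 1.77 to 3.53), under the 5 CPM filter. NEDD4, SLC25A22 and SGK1 were named after their values were seen. The calls of NEDD4L and SGK3 ended with library totals, with upper quartile scaling, with a pseudocount of 5 CPM and in the authors' deposited table.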

How the data were processed

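HCT116 messenger RNA was sequenced from 1 library per treatment, with a stranded library kit per the labels' protocols. RSEM 1.2.0 and hg19 are named in the submitters' processing notes, and no aligner is named in what was used here. Each deposited value is a signal: the authors had scaled each library's estimated counts, and the 75th percentile over all genes lies at 999.73 (DMSO) and 999.89 (CB-5083). A further column, the authors' deposited log2 ratio, holds 16034 numbers and 5081 text cells, and equals the log2 ratio of both signals to within 2.4e-09.

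Dividing by the value of 1 count (1.07904 and 1.17522) gave back estimated counts, of which 65.8% and 66.8% of those up to 1000 were whole within 0.02. CPM used TMM factors of 1.126 and 0.8883 (trims of 30% and 5%). Of 21116 rows 1 held no value. Intervals are binomial (Clopper-Pearson), approximate where an estimated count is not whole, and cover counting error only. Lengths are medians of GENCODE 29 transcripts matched by RefSeq accession, and gene positions are those of the files (hg19, counted from 1). The members and lists were chosen with earlier results of these data known. All members with at least 1 CPM in 1 library are named with values, and so are related genes called at 2-fold. The values of 1 member below 1 CPM are not reported here. The scaling, the fold calls, the intervals and the recovery of the value of 1 count were first tested on simulated counts. The other calculations were not tested in this way. Python 3.11.15, numpy 2.4.6, pandas 2.3.3 and scipy 1.17.1 were used.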

Additional observations from a re-analysis of the deposited data

How the results depend on the processing

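With 1 library per treatment, no library could be left out. The count of higher transporters, 6, was 3 with library totals and 1 at 4-fold, and between 4 and 8 under the other alternatives. The count of lower ones, 4, was 7 at 1.5-fold and 1 at 4-fold, and between 3 and 5 otherwise. Of all genes past the filter, 17.4% were higher and 12.5% lower at 1.5-fold, and 1.21% and 0.356% at 4-fold. These shares were 3.86% and 10.3% with library totals, and 6.09% and 5.29% with a filter of 1 CPM. Under the remaining alternatives 4.17% to 7.84% of all genes were higher and 2.07% to 7.83% lower. At 1.5-fold SLC1A4 and SLC1A5 joined the higher genes and SLC36A1, SLC6A6 and SLC6A8 the lower ones, and a filter of 1 CPM added SLC6A9 and SLC43A1 to the higher ones. No transporter called in either direction changed sign under any scaling, pseudocount or source of the ratio that was run. The median log2 ratio of the 41 members above 0 in both libraries, -0.06, was -0.16 with library totals and -0.053 with median of ratios. It was -0.113 with upper quartile scaling and -0.22 in the authors' deposited table. It was -0.11 with a pseudocount of 0.1 CPM, -0.016 with 5 CPM, and 0.16 over members with at least 5 CPM. The median over all genes above 0 in both libraries moved as well. From -0.008 it went to -0.209 for library totals, -0.124 for upper quartile and -0.103 for the authors' ratio. The members' median lay below that of all genes in the main setting. It lay above it for library totals and, by little, for upper quartile. Under the remaining scalings, pseudocounts and source of the ratio it lay below. Of the other solute carriers, 6 higher became 16 at 1.5-fold, 1 at 4-fold and 3 with a pseudocount of 5 CPM, and 9 lower became 18 with library totals, 20 at 1.5-fold, 0 at 4-fold and 5 with that pseudocount. Of the related genes, 2 higher became 4 at 1.5-fold and 0 at 4-fold, with a pseudocount of 5 CPM, with library totals, with upper quartile scaling and in the authors' deposited table. With the longer core (T or C as the next base) 1 member, SLC7A1, kept its match in place of 6, beside 1.77% of all windows. Genes with few counts, SLC6A9, SLC43A1 and SLC6A16 among them, have wide intervals at this depth.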
